A study of Mus musculus with 8 samples.

Results

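Glycolysis and hypoxia genes were followed in Ba/F3 cells, a mouse haematopoietic cell line of pro-B type that grows in interleukin-3, carrying either wild type FLT3 or a FLT3/ITD receptor. The list holds 42 genes, chosen by symbol: glucose and lactate carriers, the enzymes of glycolysis and their regulators, HIF-1 alpha, a pair of its prolyl hydroxylases, and further genes that HIF is known to switch on. A member counted as measured when both arrays of 1 or more groups showed a probe of it well above background, and the brightest such probe gave its value. That left 37 of the 42 members among 13718 features tested, and each of the 37 probes was above background on 8 of 8 arrays. Eno2, Ldhb, Egln3, P4ha2 and Adm had no probe that met the rule, so they have no value here.

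Cells with wild type FLT3 and cells with FLT3/ITD, an internal tandem duplication that turns the receptor on without its ligand, were each kept for 4 h with or without 100 ng/ml recombinant mouse Cxcl12. Cxcl12 is the chemokine ligand of the receptor Cxcr4. All 4 groups had grown in 10% FBS with 0.1 ng/ml interleukin-3, were washed, and spent the 4 h in medium with 0.5% BSA, for which the protocol names no interleukin-3. Each group has 2 arrays of total RNA, 1 on each of 2 slides called set 1 and set 2. The ITD is labelled N51 in set 1 and N78 in set 2, which means that an effect of the ITD type cannot be told apart from one of the set. On either slide a group sat at one fixed position, and position and group cannot be told apart. The labels do not say whether the cells are clones or pools, how the receptor was introduced, or whether the 2 arrays of a group came from separate cultures, so the p-values measure only the spread between these samples.

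Cells take up glucose through the Slc2a carriers, split it to pyruvate in glycolysis, and can turn pyruvate into lactate, which leaves through the Slc16a carriers. HIF-1 is a transcription factor made of Hif1a and Arnt. In enough oxygen the prolyl hydroxylases (Egln genes) mark Hif1a protein for destruction. With little oxygen, and in growth factor-stimulated blood cells also with enough of it, Hif1a protein builds up and raises the mRNA of glucose carriers, glycolytic enzymes, Pdk1 and Bnip3. FLT3/ITD and other active kinases are known to raise glucose use in leukaemic cells.

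On the 8 arrays 49.05 to 55% of probes were well above background, and no spot was saturated. Arrays of one set correlated at 0.957 to 0.99 and those of one group at 0.923 to 0.945, so the set was kept as a term in every fit. Of 19 pro-B cell markers 11 were measured: Cd79b, Ptprc and the interleukin-3 receptor genes Il3ra and Csf2rb were above background on 8 of 8 arrays, while Pax5, Ebf1, Rag1, Rag2, Il7r, Igll1, Cd24a and Cd93 were not above background. The array's mouse Flt3 probe was above background on the 4 arrays of set 2 only, and whether it matches the introduced receptor is not given in the sources used here, so it checks no label. Levels below are log2 signals relative to the 75th percentile of the same array. Differences are log2 values from limma with their standard error (SE), adjusted p is limma's with Benjamini-Hochberg adjustment over all 13718 features, and a member passed where it was under 0.05. A value quoted for a single set comes from 1 array of each group, without a test.

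With Cxcl12 most members lay lower, with the largest differences among the glucose carriers and HIF targets. Averaged over both kinds of cell (4 arrays with against 4 without Cxcl12), 6 of the 37 measured members fell, 0 rose and 31 did not pass, where 0.386% of all features passed. The 6 were the glucose carriers Slc2a3 and Slc2a1, the stress-induced Ndrg1, the ankyrin repeat gene Ankrd37, the collagen prolyl hydroxylase subunit P4ha1 and the mitochondrial protein gene Fam162a. The median over the members was -0.47 (set 1 -0.59, set 2 -0.29) against 0.01 over all features, and 34 of 37 were below 0, where 51.1% of all features were above 0. At an unadjusted p under 0.05 stood 24 of 37 members (64.9%) and 14.8% of all features. In 13 of 37 members both Cxcl12 arrays lay below both arrays without it in each set, which held for 4.95% of all features. The set had to be a term for any of this to pass: without the replicate block limma called 0 features in this comparison, with 309 features and 10 members at an unadjusted p under 0.05. The count also moved when 1 array was left out. It was 0 without the set 1 array of FLT3/ITD cells with Cxcl12 or without the set 2 array of wild type FLT3 cells with Cxcl12, 1 without the set 1 FLT3/ITD array or the set 2 wild type FLT3 array, 2 without the set 1 array of wild type FLT3 cells with or without Cxcl12, 3 without the set 2 FLT3/ITD array, and 10 without the set 2 array of FLT3/ITD cells with Cxcl12.

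Slc2a3 encodes GLUT3, a high-affinity glucose carrier. In wild type FLT3 cells its level was 5.0 in set 1 and 5.08 in set 2, and with Cxcl12 it was 3.05 and 3.07. In FLT3/ITD cells it was 5.94 and 5.27, and with Cxcl12 4.42 and 4.44. All 4 arrays with Cxcl12 lay below all 4 without it. On average Slc2a3 fell by 1.58 (SE 0.16, 2.98-fold, adjusted p = 0.0129). It is the member with the lowest adjusted p in this comparison, and it fell by 1.98 (SE 0.23, 3.94-fold, adjusted p = 0.042) in wild type FLT3 cells alone.

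Slc2a1 encodes GLUT1, the glucose carrier of most growing cells. Its level in set 1 was 5.80 in wild type FLT3 and 5.74 in FLT3/ITD cells without Cxcl12, against 4.37 and 4.94 with it. In set 2 the same 4 arrays read 4.62 and 4.18, against 3.15 and 4.03. Within each set both Cxcl12 arrays were the lower ones, though in set 2 the FLT3/ITD pair was only 0.15 apart. The average fall was 0.96 (SE 0.15, 1.95-fold, adjusted p = 0.041). Neither lactate carrier passed: Slc16a1 (MCT1) differed by -0.11 and Slc16a3 (MCT4) by 0.25, and over the 4 carriers the median was -0.54.

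Ndrg1, known for its induction by hypoxia and cell stress, had levels of 5.09 in wild type FLT3 and 5.99 in FLT3/ITD cells of set 1, against 3.55 and 4.40 with Cxcl12. In set 2 it read 2.37 and 2.10, against 0.54 and 0.78. Set 2 read lower than set 1 in each group, and the average Cxcl12 difference was -1.57 in set 1 and -1.58 in set 2. Ndrg1 fell by 1.57 (SE 0.21, 2.97-fold, adjusted p = 0.0293), and it is the 1 member whose difference was past 1 in both sets in both kinds of cell, though it passed in neither kind of cell alone.

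Ankrd37, a small ankyrin repeat protein gene and known HIF-1 target, read 4.97 and 4.71 in wild type FLT3 and FLT3/ITD cells of set 1, against 3.38 and 3.38 with Cxcl12. In set 2 it read 4.61 and 4.13, against 2.20 and 3.62. The lowest of its 8 values was the set 2 wild type FLT3 array with Cxcl12. Its average difference was -1.46 (SE 0.21, 2.76-fold lower, adjusted p = 0.0372).

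P4ha1 is a catalytic subunit of the enzyme that hydroxylates collagen. It read 2.13 and 2.0 in set 1 against 0.80 and 0.72 with Cxcl12, and 1.20 and 0.81 in set 2 against -0.53 and 0.30. Every Cxcl12 array lay below both arrays without it in its set, and P4ha1 fell by 1.21 (SE 0.19, 2.31-fold, adjusted p = 0.0422).

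Fam162a, a HIF-induced mitochondrial protein linked to cell death, is given here by the brighter of its 2 kept probes. In wild type FLT3 cells it read 6.37 in set 1 and 5.11 in set 2, and 4.78 and 3.68 with Cxcl12. In FLT3/ITD cells it read 6.42 and 5.44, and 6.11 and 5.38 with Cxcl12. The 2 low arrays are those of wild type FLT3 cells with Cxcl12, and the others of each set lie within 0.33. The average fall of 0.85 (SE 0.13, 1.80-fold, adjusted p = 0.0455) averages a fall of 1.51 (SE 0.19, 2.85-fold, adjusted p = 0.042) in wild type FLT3 cells and a difference of -0.19 (SE 0.19, adjusted p = 0.802) in FLT3/ITD cells. The dimmer probe did not show this pattern. It read -2.98 and -2.53 in wild type FLT3 and FLT3/ITD cells of set 1 against -4.23 and -3.97 with Cxcl12, and 0.36 and 0.29 in set 2 against -3.49 and -1.54, and it gave -1.63 with Cxcl12 in FLT3/ITD cells.

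**Figure D1:**
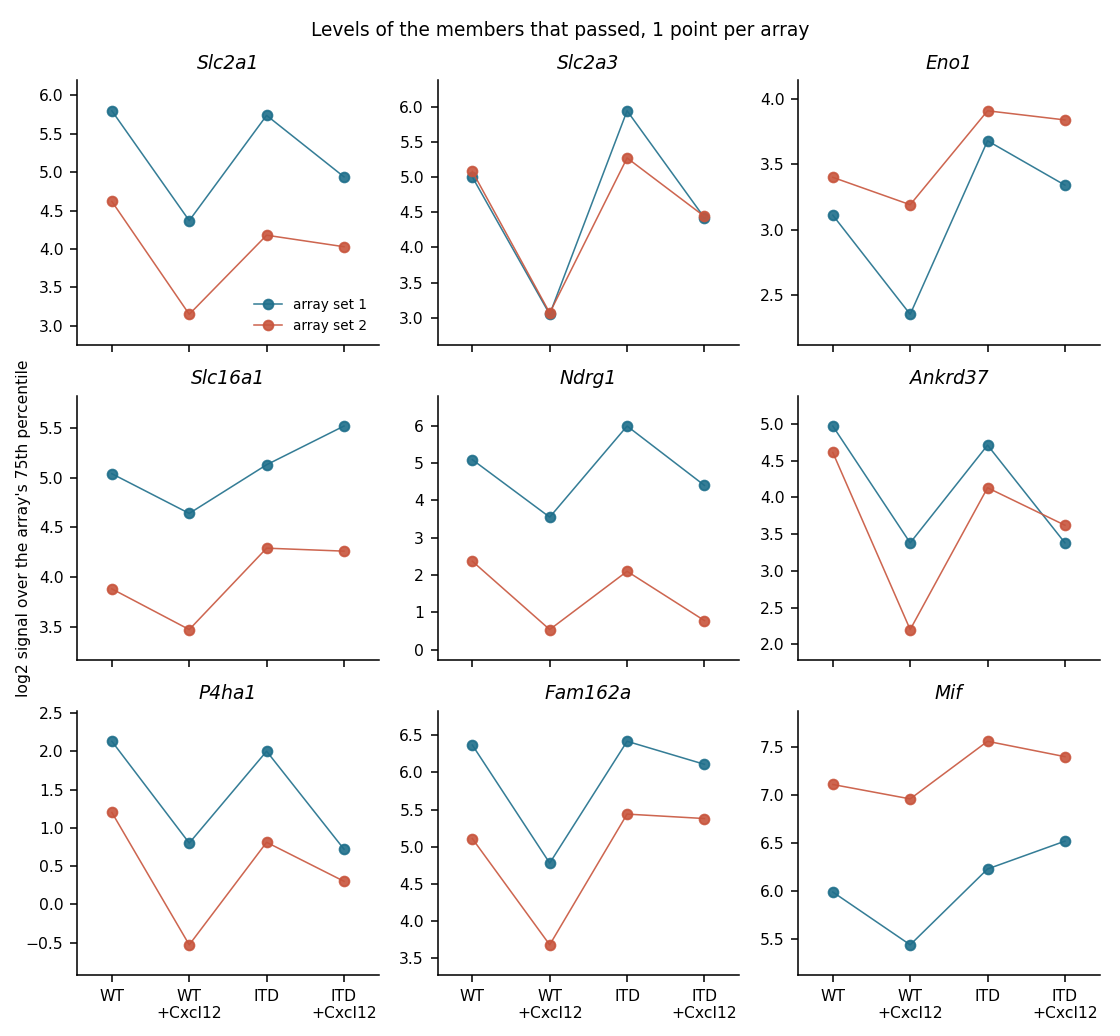
Level of each of the 9 members that passed in an average effect, on each of the 8 arrays (vertical axes, log2 signal over the array's 75th percentile, each panel with its own scale). Points are single arrays of wild type FLT3 (WT) and FLT3/ITD (ITD) cells without and with Cxcl12, joined within a set. Slc2a3, Slc2a1, Ndrg1, Ankrd37 and P4ha1 are lower with Cxcl12 in both kinds of cell and both sets, while the Fam162a probe used has its low values on the 2 arrays of wild type FLT3 cells with Cxcl12, at 4.78 and 3.68.

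The other 31 members did not pass in the average Cxcl12 effect, and are given by role. Among the mitochondrial HIF targets Bnip3, which marks mitochondria for removal, had the lowest value of the list at -1.61 (SE 0.34, adjusted p = 0.0834), with -2.27 in set 1 and -0.94 in set 2, while Bnip3l lay at -0.71 and Higd1a, a respiratory chain assembly factor, at -0.60. The other HIF targets Kdm3a, a histone demethylase, and Car9, a carbonic anhydrase, lay at -0.86 and -0.33. The 9 upper glycolysis enzymes, from hexokinase to triose phosphate isomerase, had a median of -0.47, and 8 of 9 were below 0. They ran from Pfkp, a phosphofructokinase, at -0.84 (SE 0.17, adjusted p = 0.0716) to Aldoc, an aldolase, at 0.51 (SE 0.24, adjusted p = 0.377), the highest value of the list. The glucose phosphate isomerase Gpi1 was at -0.47, the hexokinases Hk2 and Hk1 at -0.77 and -0.15, the phosphofructokinases Pfkl and Pfkm at -0.55 and -0.49, Tpi1 at -0.40 and the main aldolase Aldoa at -0.36. The 5 measured lower glycolysis enzymes, Gapdh, Pgk1, Pgam1, Eno1 and Pkm, lay between -0.40 and -0.27. Ldha, which turns pyruvate into lactate, lay at -0.18. Among the regulators Pdk1, the kinase that shuts pyruvate dehydrogenase, was at -0.97 (SE 0.26, adjusted p = 0.135) and the phosphoglucomutase gene that the array design calls Pgm2 (Pgm1 in RefSeq) at -0.86, against -0.26 for the related kinase Pdk3, -0.05 for Pfkfb3 and 0.23 for Pfkfb4, which set the level of the phosphofructokinase activator fructose 2,6-bisphosphate. Hif1a mRNA itself differed by -0.23 (SE 0.17, adjusted p = 0.57) and the hydroxylase Egln1 by -0.68. Vegfa, the angiogenic growth factor, lay at -0.54 and the cytokine Mif at -0.14.

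In wild type FLT3 cells alone (2 arrays against 2) Slc2a3 and Fam162a fell, 0 members rose and 35 did not pass, where 0.0656% of all features (9 of 13718) passed. Of the 37 members 36 were below 0, with a median of -0.62 (set 1 -0.76, set 2 -0.41) against -0.02 over all features, and 21 were at an unadjusted p under 0.05 (56.8%, against 7.17% of all features). A further 7 members differed by at least 1 in both sets without passing. They were Ankrd37 at -2.01 (SE 0.30, adjusted p = 0.0994), Bnip3 at -1.88 (SE 0.48, adjusted p = 0.36), Ndrg1 at -1.69 (SE 0.29, adjusted p = 0.135), P4ha1 at -1.53 (SE 0.26, adjusted p = 0.135), Slc2a1 at -1.45 (SE 0.21, adjusted p = 0.087), Pdk1 at -1.37 (SE 0.36, adjusted p = 0.382) and the hexokinase Hk2 at -1.33 (SE 0.24, adjusted p = 0.151). These are folds of 2.52 for Hk2 to 4.01 for Ankrd37. Aldoc, at 0.45, was the 1 member above 0. Leaving out either array of FLT3/ITD cells with Cxcl12 gave 4 members, and leaving out any of the other 6 arrays (the wild type FLT3, FLT3/ITD, and wild type FLT3 with Cxcl12 arrays of both sets) gave 0. Without the replicate block limma called 0 of all features, with 12 members at an unadjusted p under 0.05.

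In FLT3/ITD cells alone Cxcl12 gave 0 passing members, where 0% of all features (0 of 13718) passed with limma and 1431 features stood at an unadjusted p under 0.05, 9 of them members. The median was -0.25 (set 1 -0.58, set 2 -0.14) against 0.04 over all features, and 31 of 37 were below 0. Ndrg1, at -1.46 (SE 0.29, 2.74-fold lower, adjusted p = 0.286), was past 1 in both sets, with -1.59 and -1.32. Bnip3 was at -1.33 (SE 0.48, adjusted p = 0.406), from -2.39 in set 1 to -0.27 in set 2, and Slc2a3 at -1.17 (SE 0.23, adjusted p = 0.286). Among the members whose sets took opposite signs were Pdk1 and Egln1, at -1.22 and 0.07 for Pdk1 and -1.22 and 0.27 for Egln1. At the other end Aldoc was at 0.56, Slc16a3 at 0.52 and Pfkfb4 at 0.48. Leaving out the set 2 array of FLT3/ITD cells with Cxcl12 gave 1 passing member.

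Across the 37 members the Cxcl12 differences of the 2 kinds of cell had a Pearson correlation of 0.79, against 0.48 across 13718 features. Those of set 1 and set 2, averaged over the cells, had one of 0.74, against 0.41. These are descriptions across genes, which are not independent, and the points share the slides and the positions on them.

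**Figure D2:**
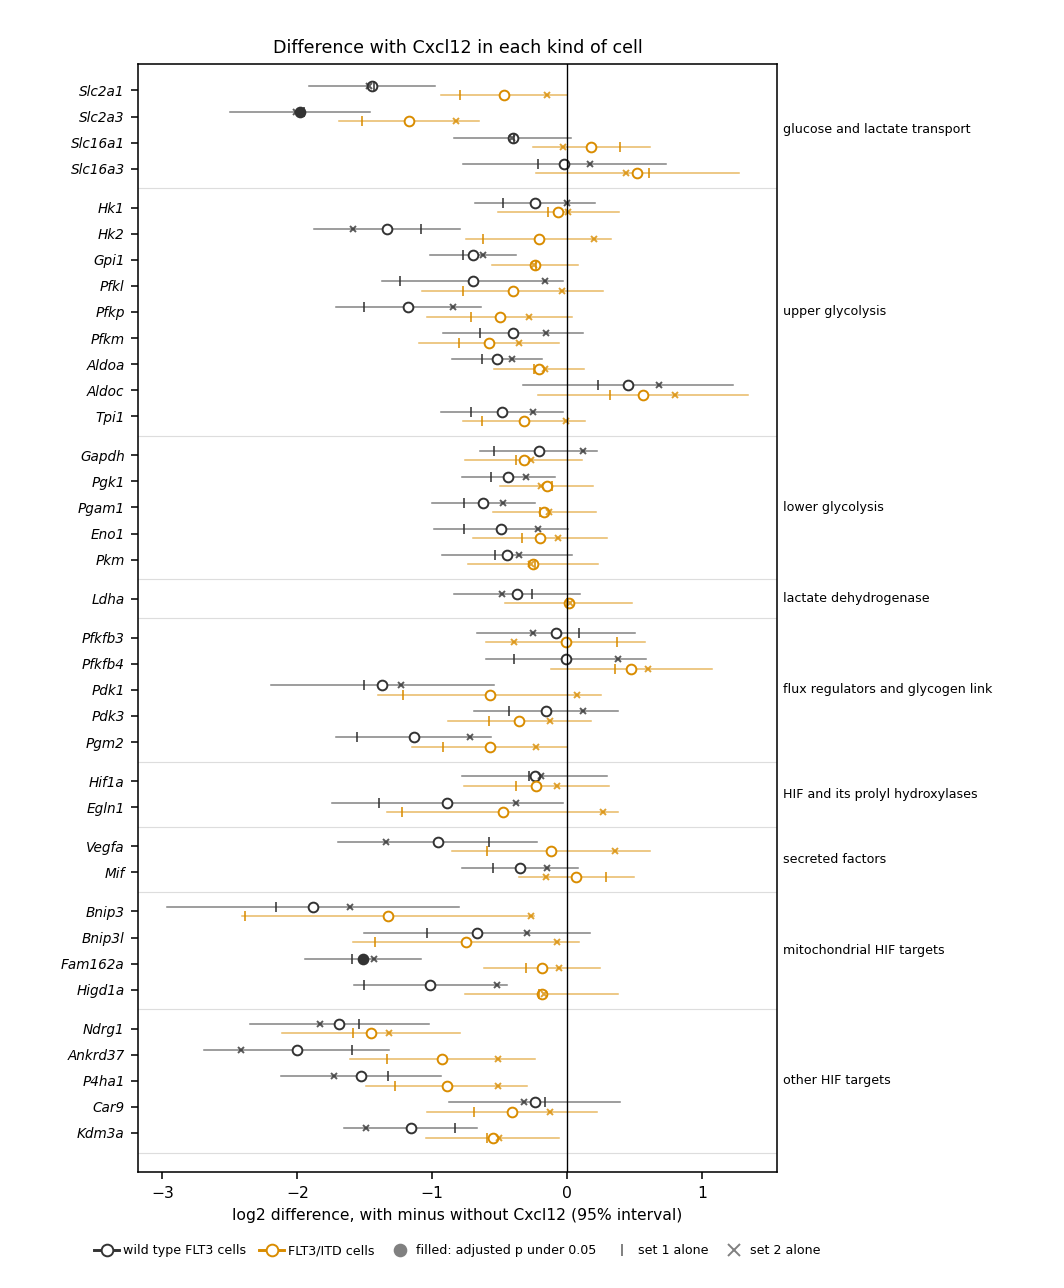
Log2 difference with minus without Cxcl12 (horizontal axis) for the 37 measured members by role, in wild type FLT3 cells (dark) and FLT3/ITD cells (orange). Circles are limma estimates from 2 arrays against 2 with 95% intervals, filled where the adjusted p was under 0.05; ticks and crosses are set 1 and set 2 alone. In wild type FLT3 cells the carrier Slc2a3 (-1.98) and the HIF targets Ankrd37 (-2.01), Bnip3, Ndrg1 and P4ha1 reach furthest below 0. Not all HIF targets do, with Car9 at -0.24. In both kinds of cell the lower glycolysis enzymes stay between -0.62 and -0.15.

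HIF and related factors bind sites whose core can read ACGTG. This word was searched on both strands (CACGT is the same site read from the other strand, and CACGTG, which holds both, was counted once) in the RefSeq promoter windows of GRCm38.p6, which run from 250 bases before to 50 after a transcript start. Windows were given for 39 of the 42 members, the exceptions being Slc2a3, Ndrg1 and Bnip3l. At least 1 site stood in a window of 28 of these 39 members (71.8%), against 21.8% of 27025 genes and 28.9% of the 9511 genes that were both tested here and given a window. Of single windows 19.6% of 32851 held the word. Among the 6 members that fell with Cxcl12, the 4 with a window, Slc2a1, Ankrd37, P4ha1 and Fam162a, each held it before the start. The 250 bases before the start held it in 21 of 34 measured members with a window (61.8%) and in 24.8% of the genes tested. Of the members that did not pass in the average Cxcl12 effect, Hk2, Pgk1, Ldha, Slc16a3, Hif1a and Car9 also held it before the start. No window of Gpi1, Pfkp, Tpi1, Pdk1, Kdm3a or Eno1 held it, and no other form of the core was searched. The word contains a CpG, and base composition was not matched in these shares. The list was also chosen to include genes that HIF is known to switch on. A higher share than over all genes can come from that choice, and it is no result of these arrays.

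The stretches of 60 bases around the upstream site nearest the start are shown for the 4 members that fell and had a window, and for Slc16a1, which rose with FLT3/ITD, because they let the sites be compared. They are written along the gene, 5′ to 3′, with the site in capitals.
Slc2a1: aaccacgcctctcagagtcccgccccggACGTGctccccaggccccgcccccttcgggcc
Ankrd37: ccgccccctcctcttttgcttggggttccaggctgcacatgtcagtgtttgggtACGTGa
P4ha1: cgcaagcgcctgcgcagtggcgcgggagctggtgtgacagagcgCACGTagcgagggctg
Fam162a: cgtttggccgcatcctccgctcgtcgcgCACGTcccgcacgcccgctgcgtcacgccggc
Slc16a1: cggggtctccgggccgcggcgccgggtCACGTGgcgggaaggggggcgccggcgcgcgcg
The stretches lie upstream of the start at chr4:119108681-119108740 (plus strand) for Slc2a1, chr8:45999851-45999910 (minus) for Ankrd37, chr10:59323236-59323295 (plus) for P4ha1, chr16:36071611-36071670 (minus) for Fam162a and chr3:104638437-104638496 (plus) for Slc16a1, all GRCm38.p6. The site begins 36 bases before the start in Slc2a1, 6 in Ankrd37, 16 in P4ha1, 81 in Fam162a and 200 in Slc16a1. P4ha1 and Fam162a carry it on the opposite strand, and Slc16a1 carries the palindrome CACGTG, the E-box read by Myc and Max among others. A match is a description of these letters, not of a bound site.

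Between the cells, averaged over both Cxcl12 conditions (4 FLT3/ITD arrays against 4 wild type FLT3 arrays), 5 members rose with FLT3/ITD, 0 fell and 32 did not pass, where 6.19% of all features passed. The 5 were the glucose carrier Slc2a3, the lactate carrier Slc16a1, the enolase Eno1, the cytokine Mif and Fam162a. The median was 0.24 (set 1 0.18, set 2 0.31) against -0.01 over all features, and 31 of 37 were above 0, where 48.9% of all features were. At an unadjusted p under 0.05 stood 12 of 37 (32.4%), against 26.3% of all features, and in 6 of 37 both FLT3/ITD arrays lay above both wild type FLT3 arrays in each set, against 9.84% of all features. These counts lie nearer to the background than those with Cxcl12. The count was 9 after scaling by the median, 1 after quantile normalization, 0 with normexp background correction and 0 without the replicate block. It was 0 without either array of wild type FLT3 cells with Cxcl12, 1 without the set 2 FLT3/ITD array, 2 without the set 2 wild type FLT3 array, and 3 without the set 1 FLT3/ITD array or either array of FLT3/ITD cells with Cxcl12.

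Slc2a3, whose 8 values are given above, rose by 0.97 (SE 0.16, 1.95-fold, adjusted p = 0.0138), by 1.15 in set 1 and 0.78 in set 2. Fam162a rose by 0.85 (SE 0.13, 1.81-fold, adjusted p = 0.0112), with a difference of 0.19 without Cxcl12 and 1.52 with it. Across the Cxcl12 conditions the FLT3/ITD and wild type FLT3 arrays overlap for Slc2a3 in both sets and for Fam162a in set 1, while in set 2 both FLT3/ITD arrays of Fam162a lay higher.

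Eno1, the enolase of most tissues, read 3.11 in wild type FLT3 and 3.68 in FLT3/ITD cells of set 1, and 2.35 and 3.34 with Cxcl12. In set 2 it read 3.40 and 3.91, and 3.19 and 3.84. In each set both FLT3/ITD arrays lay above both wild type FLT3 arrays, and Eno1 rose by 0.68 (SE 0.16, 1.60-fold, adjusted p = 0.0383). Eno1 has 1 probe, so no other probe could be set beside it.

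Slc16a1, the carrier that moves lactate and pyruvate across the membrane, read 5.04 and 5.13 in set 1 and 4.64 and 5.52 with Cxcl12. In set 2 it read 3.88 and 4.29, and 3.47 and 4.26. The arrays of the 2 kinds of cell did not overlap within a set, though in set 1 without Cxcl12 they were only 0.09 apart. It rose by 0.55 (SE 0.14, 1.46-fold, adjusted p = 0.0494).

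Mif, a cytokine that is also a known HIF target, read 5.99 and 6.23 in set 1 and 5.44 and 6.52 with Cxcl12. In set 2 it read 7.11 and 7.56, and 6.96 and 7.4. Again both FLT3/ITD arrays were the higher ones in each set, and Mif rose by 0.55 (SE 0.13, 1.47-fold, adjusted p = 0.0459).

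Of the 32 members that did not pass in the average ITD effect, Slc16a3 (0.89, SE 0.24, adjusted p = 0.0567), Pdk1 (0.85, SE 0.26, adjusted p = 0.0802) and Higd1a (0.63, SE 0.18, adjusted p = 0.0679) had the highest values, and Hif1a (-0.34, SE 0.17, adjusted p = 0.23) the lowest. The upper glycolysis enzymes lay near 0, with a median of 0.09 and a range from -0.28 for Hk1 to 0.28 for Pfkm. The 5 lower glycolysis enzymes were all above 0, from 0.14 for Pkm to 0.68 for Eno1, with Gapdh at 0.47 (SE 0.14, adjusted p = 0.0739). The 5 remaining HIF targets had a median of 0.06, and Bnip3l, at 0.02, was the member nearest 0. Gapdh and several other glycolytic enzymes have near-identical pseudogene copies that a probe may not tell apart, and the files place both Pgk1 probes on chromosome 3 of mm9, whereas RefSeq has the gene on X, so the Pgk1 value is uncertain.

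Without Cxcl12, with limma 0 members passed, where 0.51% of all features (70) did, and 4 members and 1693 features were at an unadjusted p under 0.05. The median was 0.05 (set 1 -0.05, set 2 -0.03) against -0.05 over all features, 21 of 37 were above 0, and the members ran from Kdm3a at -0.62 (SE 0.22, adjusted p = 0.326) to Slc16a3 at 0.62 (SE 0.33, adjusted p = 0.484). Which side of 0 the median takes depended on the setting, from -0.14 to 0.29.

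With Cxcl12 Slc2a3 and Fam162a were higher in FLT3/ITD cells, 0 members were lower and 35 did not pass, where 0.838% of all features passed. Slc2a3 was 1.37 higher (SE 0.23, 2.58-fold, adjusted p = 0.0348), with 1.37 in each set, and Fam162a 1.52 higher (SE 0.19, 2.86-fold, adjusted p = 0.00879), with 1.33 and 1.70. These are the brighter probes. The other kept probe of Slc2a3 gave 0.02, with 0.47 in set 1 and -0.44 in set 2. The dimmer probe of Fam162a gave 1.11, with 0.26 in set 1 and 1.95 in set 2. The median was 0.41 (set 1 0.40, set 2 0.47) against 0.04, and 31 of 37 were above 0. At an unadjusted p under 0.05 stood 16 of 37 (43.2%), against 18.2% of all features. Pdk1 at 1.25 (SE 0.36, adjusted p = 0.133), Slc16a3 at 1.16 (SE 0.33, adjusted p = 0.129) and Higd1a at 1.04 (SE 0.25, adjusted p = 0.0954) followed without passing. The count was 0 without either array of wild type FLT3 cells with Cxcl12, 1 without the set 2 array of FLT3/ITD cells with Cxcl12, and 0 without the replicate block, where 3 members were at an unadjusted p under 0.05. The ITD comparison with Cxcl12 shares its wild type arrays with the Cxcl12 comparison in wild type FLT3 cells, and the low Slc2a3 and Fam162a values on those 2 arrays enter both.

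**Figure D3:**
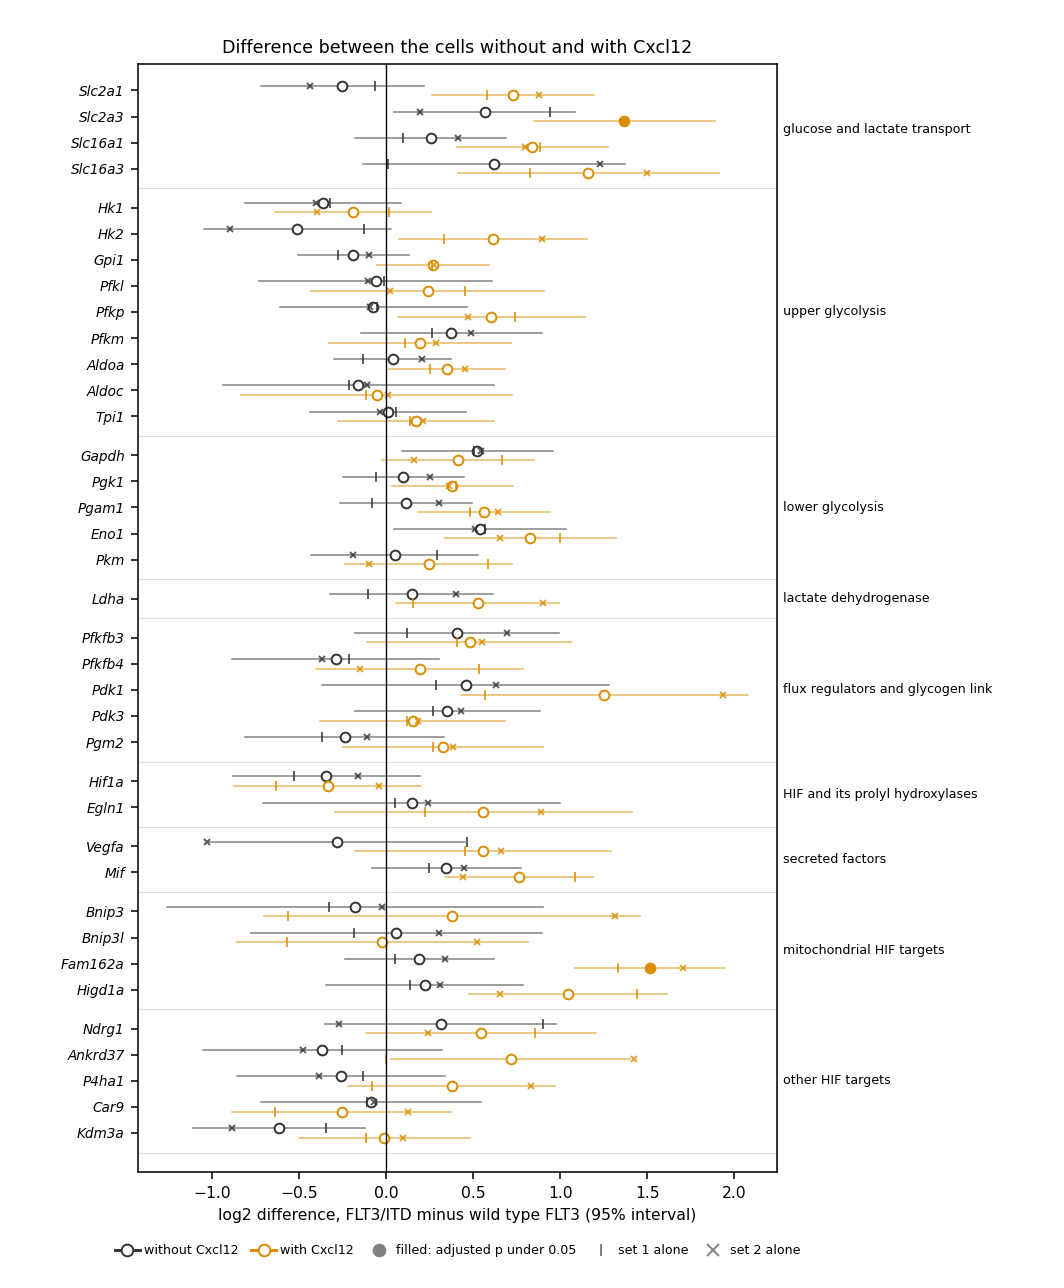
Log2 difference FLT3/ITD minus wild type FLT3 (horizontal axis) for the 37 measured members by role, without Cxcl12 (dark) and with it (orange). Circles are limma estimates from 2 arrays against 2 with 95% intervals, filled where the adjusted p was under 0.05; ticks and crosses are set 1 and set 2 alone. Without Cxcl12 the circles scatter about 0, between -0.62 and 0.62, and with Cxcl12 they reach 1.52 for Fam162a and 1.37 for Slc2a3.

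The difference between the Cxcl12 responses of the 2 kinds of cell was tested as an interaction. With limma 0 members passed, where 0% of all features (0 of 13718) passed, and 7 members (18.9%) stood at an unadjusted p under 0.05 against 237 features (1.73%). The 7 were Fam162a at 1.33 (SE 0.27, limma adjusted p = 1), Hk2 at 1.12, Ankrd37 at 1.08, Slc2a1 at 0.98, Higd1a at 0.82, Slc2a3 at 0.80 and Gpi1 at 0.46, and all lay above 0, on the side of a smaller Cxcl12 difference in FLT3/ITD cells. Fam162a, by its brighter probe, was past 1 in both sets, with 1.28 and 1.37. Its dimmer probe gave 0.92 and did not repeat this in set 1. There its Cxcl12 difference was -1.25 in wild type FLT3 and -1.43 in FLT3/ITD cells. The median was 0.42 (set 1 0.30, set 2 0.34) against 0.06 over all features, and 32 of 37 were above 0, where 58.2% of all features were. A difference between the responses was thus not shown for any single member.

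Other genes of these pathways, in lists that hold no member, were set beside them for the average effects. The lists overlap. Gys1 and Gbe1 are in both the HIF target and the glycogen list, and Tfrc is a HIF target and an erythroid marker. Of 27 measured genes in a list of further HIF targets, 6 fell with Cxcl12 and 0 rose, with a median of -0.73, and 4 of 27 were above 0. Ddit4, an inhibitor of mTOR signalling induced by hypoxia, fell by 1.80 (SE 0.22, adjusted p = 0.0267), the stress gene Ier3 by 1.78 (SE 0.20, adjusted p = 0.0166) and the repressor Bhlhe40 by 1.39 (SE 0.20, adjusted p = 0.0363). At an unadjusted p under 0.05 stood 20 of the 27, against 14.8% of all features, and 0.233% of all features passed as lower with Cxcl12. With FLT3/ITD 3 of the 27 rose, where 3.59% of all features passed as higher, and 11 of 27 were at an unadjusted p under 0.05, against 26.3% of all features. The carbonic anhydrase Car12 rose by 1.66 (SE 0.17, adjusted p = 0.00146), the lipase inhibitor Angptl4 by 0.97 (SE 0.18, adjusted p = 0.0193) and the transferrin receptor Tfrc by 0.92 (SE 0.19, adjusted p = 0.0316).

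Other genes of carbon metabolism and oxygen sensing had medians near 0 with Cxcl12. They were -0.03 over 18 other glycolysis genes, -0.01 over 28 genes of pyruvate dehydrogenase and the TCA cycle, 0.02 over 11 of the pentose phosphate pathway, -0.11 over 12 of glycogen and gluconeogenesis and 0.04 over 14 of oxygen sensing, and 0 genes of these lists passed in either direction with limma. At an unadjusted p under 0.05 with Cxcl12 stood 7, 0, 0, 3 and 2 of them, in the same order, against 14.8% of all features. The other glycolysis genes and the glycogen list had a higher share than that. Behind their median near 0 the other glycolysis genes went both ways, with 9 of 18 above 0. They ran from Ldhc at -0.98 (SE 0.31, adjusted p = 0.187) to Tigar at 1.23 (SE 0.33, adjusted p = 0.139). With FLT3/ITD 1 of the 18 other glycolysis genes rose, where 3.59% of all features passed as higher, the muscle-type enolase Eno3 by 0.93 (SE 0.22, adjusted p = 0.0415), and 0 passed with limma in the other lists just named, where 7 of 28, 3 of 11, 4 of 12 and 2 of 14 were at an unadjusted p under 0.05. Among the other glycolysis genes 5 of 18 were, and among all features 26.3%, so these shares lie around the background. Their ITD medians were 0.33 for other glycolysis genes, 0.27 for the TCA cycle list, 0.29 for the pentose phosphate pathway, 0.03 for glycogen and gluconeogenesis and 0.12 for oxygen sensing. Among 23 upstream kinases and factors Myc, a transcription factor that can drive glycolytic genes, rose with Cxcl12 by 1.22 (SE 0.17, adjusted p = 0.0349). A link between Myc mRNA and the members was not tested. Pim1, a kinase known as a target of STAT5, rose with FLT3/ITD by 2.48 (SE 0.27, adjusted p = 0.00189) and the forkhead factor Foxk2, a known regulator of glycolytic enzymes, by 0.72 (SE 0.16, adjusted p = 0.0367).

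Some markers of other blood cells moved with the ITD groups beside these genes. A summed level here is the log2 of a list's added linear signals. It follows the brightest genes and does not show a shift of the whole list. Of 37 measured markers in 6 lists 15 were at an unadjusted p under 0.05 with FLT3/ITD, against 26.3% of all features, and 6.19% of all features passed. Of 9 measured mast cell and basophil markers 3 fell with FLT3/ITD, and their summed level was 8.02 to 8.49 in wild type FLT3 and 5.70 to 7.07 in FLT3/ITD cells without Cxcl12, and 7.68 to 8.34 and 5.52 to 7.08 with it. Of 4 neutrophil markers 1, Ctsg, fell with FLT3/ITD, and 2 lay above 0. The sums, carried mostly by Ctsg and Mpo, were 5.72 to 6.26 and 2.79 to 3.25 without Cxcl12, and 4.84 to 5.44 and 1.28 to 1.88 with it. Of 5 T and NK cell markers 1, Lat, rose by 2.08 (SE 0.27, adjusted p = 0.00519). Cd3e lay at 0, Cd4 at 0.14, Lck at -0.05 and Nkg7 at 0.80, and none of these passed. The sums were 0.21 to 0.43 and 1.46 to 1.79 without Cxcl12, and 0.06 to 0.93 and 1.61 to 3.03 with it. Of the 11 pro-B cell markers 2 fell, Ptprc by 0.55 and Csf2rb2 by 0.60, with sums of 8.68 to 8.68 and 8.04 to 8.15, and 8.81 to 9.27 and 8.52 to 8.55. Of 4 monocyte and macrophage markers and of 4 erythroid markers 1 each rose (Lyz2 and Tfrc). The monocyte sums were 4.18 to 5.60 and 3.34 to 5.41 without Cxcl12, and 4.39 to 5.36 and 2.98 to 5.52 with it, and the erythroid sums 4.15 to 5.16 and 4.26 to 4.97, and 4.75 to 4.78 and 4.93 to 5.09. With Cxcl12 0 of the markers in these 6 lists passed with limma, with 8 at an unadjusted p under 0.05, though the neutrophil median was -1.54 with 0 of 4 above 0. Some markers that define these cells were present. The mast cell chymase Cma1 read 7.85 and 7.61 in wild type FLT3 cells and 5.73 and 4.35 in FLT3/ITD cells without Cxcl12, and the neutrophil protease gene Ctsg 6.1 and 5.49 against 2.61 and 0.03. The basophil protease gene Mcpt8, the macrophage marker Adgre1, the myeloperoxidase gene Mpo and the T cell gene Cd3e were also above background on 8 of 8 arrays. Cd3e was dim, at -4.72 to -4.37 in set 1, and higher in set 2, at -2.15 to -1.38. The mast cell receptor genes Fcer1a and Ms4a2 were above background on 6 and 5 of 8 arrays. In the same lists Kit and Tpsb2 of mast cells, Csf1r, Itgam and Fcgr1 of macrophages, Elane, Ltf and S100a8 of neutrophils, and Cd3g and Cd8a of T cells were not above background. The part of these shifts in the members' differences was not tested.

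By the Pearson correlation over 8 arrays after set means were removed, the genes most alike to a member were rarely members. Ankrd37 and P4ha1 were each other's close match, with r = 0.99, first for Ankrd37 and second for P4ha1. Pgam1 was the fourth match of Fam162a (r = 0.978). The nearest named genes to the other passing members were 1700031C06Rik for Slc2a3 (0.972), Rnd1 for Slc2a1 (0.992), Nt5c3 for Eno1 (0.992), Tmem203 for Slc16a1 (0.989), Tle6 for Ndrg1 (0.993) and Xpnpep1 for Mif (0.992). The highest of 13718 correlations over 8 points is high for any gene, so these are descriptions.

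How far a member's value depends on its probe could be read for 20 members with more than 1 kept probe. It could not be read for the passing members Slc2a1, Ndrg1, Ankrd37, Eno1 and Mif, which have 1 probe each. In the average Cxcl12 effect the probes of 18 of 20 took one sign. The exceptions were Kdm3a, with -1.0, -0.86 and 0.11, and Slc16a1, with -0.14 to 0.06. The probes of Fam162a differed by 1.24, at -0.85 for the brighter and -2.09 for the dimmer. Pkm probes ran from -1.44 to -0.23. In the average ITD effect 5 of 20 had probes of both signs: Slc2a3, Hk1, Gpi1, Pfkp and Pkm.

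Slc2a3 matters most here, since its call with FLT3/ITD rests on the brighter probe. The probe used and the other kept one are 60 bases each, and their first 30 bases are shown because the 2 lie at different places.
Slc2a3 probe used: gtgcttacacatttcagaccctttaggcaa
Slc2a3 other probe: cagtactgattagtactaactagcccttaa
The files of set 2 list them on chromosome 6 of mm9, from the higher to the lower coordinate, at chr6:122678134-122678075 and chr6:122687832-122687773. The other probe was above background on 6 of 8 arrays. It read -4.36 in wild type FLT3 and -3.99 in FLT3/ITD cells of set 1, and -5.26 and -4.79 with Cxcl12, against -0.27 and -1.35 in set 2, and -2.11 and -2.55 with Cxcl12. Both probes were lower with Cxcl12 in both kinds of cell, at -1.58 and -1.19 on average. With FLT3/ITD the probe used gave 0.97 and the other -0.17, with 0.42 in set 1 and -0.76 in set 2, so the rise of Slc2a3 was seen with 1 of its 2 kept probes.

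**Figure D4:**
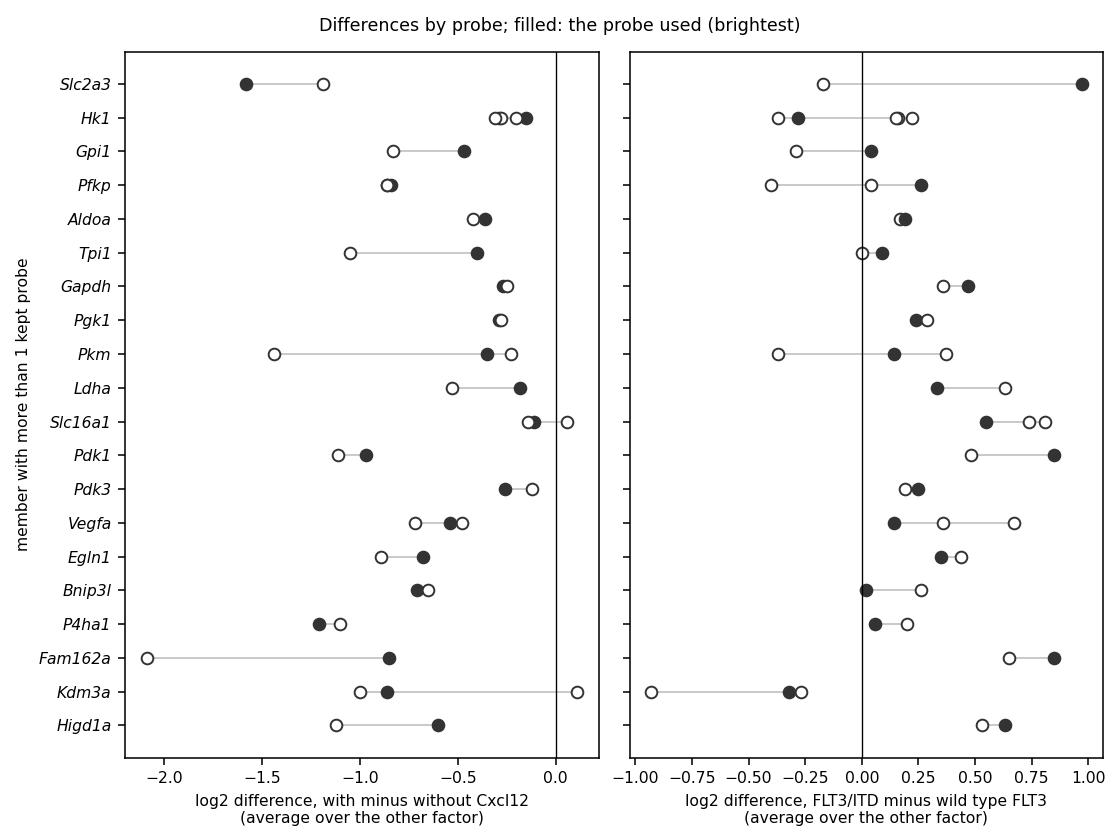
Average Cxcl12 difference (left, log2, with minus without) and average ITD difference (right, log2, FLT3/ITD minus wild type FLT3) for each kept probe of the 20 members with more than 1, one circle per probe, filled for the brightest probe, which was used. On the left nearly all circles lie below 0; on the right Slc2a3 is split between 0.97 and -0.17, and the Kdm3a probes lie between -0.93 and -0.27.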

How the data were processed

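Total RNA of 8 Ba/F3 samples was hybridized to Agilent 1-colour (Cy3) mouse arrays. The deposited intensities were, per the file headers, background-subtracted by Agilent Feature Extraction (9.5.1.1 in set 1, 10.7.3.1 in set 2). The authors' deposited normalized signal tables served as an alternative. Each of their columns lay within 0.1 log2 of 1 median-scaled array for 99.84 to 99.95% of probes.

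Here log2 processed intensities were taken relative to each array's 75th percentile (366.7 to 1109). Control spots were left out, outlier spots (93 to 203 per array) set to missing and spots of a probe averaged. Of 41174 probes 21121 were kept, giving 11986 named genes and 1732 unnamed probes. Names came from RefSeq where it held the probe's accession or symbol.

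All 8 arrays were fitted with limma 3.58.1 (R 4.3.3) with 4 group means, the set as block and an intensity trend, with 3 residual degrees of freedom left. Pairing by slide comes from the file headers, and set deviations correlated at 0.73 to 0.879. The fit was also run on simulated arrays with independent noise. These hold no effect of slide position or ITD type, so they check the fit and not the calls made here. Precision is limited by the number of arrays.

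All members passing a comparison or past 1 in both sets were named, with the largest and smallest differences of each role. Of other genes, up to 4 passing an average effect per list were named. Some genes of these lists are not reported here. The members and lists were chosen with earlier results of these data known. The alternatives were another scaling, background correction, probe filter, probe rule, block and trend, the deposited tables, leaving out each array and, added after seeing the data, named genes only.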

Additional observations from a re-analysis of the deposited data

How the results depend on the processing

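Over 24 named member differences and 18 alternatives each, 0 changed direction. Of these differences 15 had passed, and over the alternatives they missed the threshold in 152 of 270 cases, while those that had not passed reached it in 7 cases. The 24 were named for passing or for reaching 1 in both sets, and the block and trend settings leave an estimate unchanged. A change of direction was therefore unlikely from the start. A member's other probe alone was not among the alternatives, and for Slc2a3 it gave -0.17 with FLT3/ITD. Medians over the members ranged from -0.77 to -0.36 in the average Cxcl12 effect, from -1.19 to -0.41 for Cxcl12 in wild type FLT3 cells, from -0.47 to -0.15 in FLT3/ITD cells, from 0.14 to 0.51 in the average ITD effect, from 0.31 to 1.02 for ITD with Cxcl12 and from 0.20 to 0.96 in the interaction. Counts of passing members moved more. The average Cxcl12 count of 6 became 3 with quantile normalization, 0 with no filter on dim probes, 0 without the replicate block, 10 with the set as a random block and 0 with no intensity trend, and 0 to 10 with 1 array left out. The average ITD count of 5 became 1 with quantile normalization, 9 with median scaling, 0 with normexp, 9 with the deposited tables, 0 with no filter, 2 with the mean of a gene's probes, 0 without the replicate block and 2 with no trend, and 0 to 4 with 1 array left out. For ITD with Cxcl12 the count of 2 became 1 with quantile normalization, 0 with normexp, 0 with no filter, 0 with the mean of probes, 0 without the replicate block and 1 with no trend, and 0 to 2 with 1 array left out. For Cxcl12 in wild type FLT3 cells the count of 2 became 0 with quantile normalization, normexp, no filter, the mean of probes, no replicate block and no trend, 1 with the deposited tables, and 0 to 4 with 1 array left out. For Cxcl12 in FLT3/ITD cells the count of 0 stayed at 0 except for the 0 to 1 with 1 array left out. In these settings with limma counts of 0, the members at an unadjusted p under 0.05 numbered 12 to 23 for Cxcl12 in wild type FLT3 cells, 3 to 15 for ITD with Cxcl12, 3 to 11 in the average ITD effect and 10 to 23 in the average Cxcl12 effect. The cause of these moves was not tested. The median of all features moved too, from -0.07 to 0.19 for ITD without Cxcl12, -0.13 to 0.11 for Cxcl12 in wild type FLT3 cells, -0.05 to 0.25 in FLT3/ITD cells, -0.03 to 0.12 in the average ITD effect and -0.03 to 0.14 in the average Cxcl12 effect, and with median scaling it was 0.19 and 0.12 for ITD without Cxcl12 and on average. Aldoc, Slc16a3 and Car9 lay below the 75th percentile on 8 of 8 arrays, where signal over background limits precision.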
